A study of Rattus norvegicus with 2 samples.

Results

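The miR-17-92 cluster and its paralogues were followed in small RNA sequencing of the rat left ventricle. Members were the rows of the deposited count tables named mir-17-1, mir-17-2, mir-19a, mir-19b-1, mir-19b-2, mir-92a-1, mir-92a-2 and mir-25. These are 8 of the 191 unmarked entries for which a ratio could be computed. Both mir-17 rows agreed within 1 count and both mir-19b rows were equal, so the 8 rows were read as 6 measurements. All 8 had a summed count of at least 20, the minimum set for a call. The study compared the hearts of trained rats with those of untrained ones, and each condition was represented by 1 library. In the swim group, Wistar rats aged 16 weeks had trained in water over 8 weeks, with 2 daily sessions of 90 minutes each. The control group held Wistar rats of the same age, and both groups had free access to feed and water. How many animals each library stands for is unknown here.

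The miR-17-92 cluster is a polycistronic locus, in which several miRNA hairpins are cut from one primary transcript. Its transcription is activated by MYC in human and mouse cells, and its products repress, among others, the transcript of the pro-apoptotic protein BIM. In the mouse heart the cluster is known for promoting cardiomyocyte proliferation, and miR-92a is known in mouse and human endothelium for restraining vessel growth. A related cluster lies on the X chromosome, and a further one, mir-106b-25, lies in an intron of the replication gene Mcm7 in mammals. A miRNA recognises its targets mainly through its seed, bases 2 to 8 from the 5′ end, so members that share a seed share many predicted targets.

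The mature sequences place the 6 measurements in 3 seed groups. They were taken from RefSeq (assembly GRCr8), in which all 8 members matched by gene synonym. The arm known as the main product of each hairpin is shown, with the seed in capitals, because the comparison between members follows these groups.
miR-17-5p (mir-17-1 and mir-17-2): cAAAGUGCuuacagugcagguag
miR-19a-3p (mir-19a): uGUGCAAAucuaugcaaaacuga
miR-19b-3p (mir-19b-1 and mir-19b-2): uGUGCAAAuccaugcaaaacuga
miR-92a-3p (mir-92a-1 and mir-92a-2): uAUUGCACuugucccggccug
miR-25-3p (mir-25): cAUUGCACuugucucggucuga
Counted from 1 at the 5′ end, miR-19a-3p departs from miR-19b-3p only by C11U. The differences of miR-25-3p from miR-92a-3p over their shared 21 bases are U1C, C14U and C18U. No source used here says whether mismatches were allowed, so whether rows of such close arms hold each other's reads is unknown.

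In the RefSeq gene order, mir-17-1, mir-18a, mir-19a, mir-20a, mir-19b-1 and mir-92a-1 follow each other on chromosome 15, and miR-17-5p is annotated on the plus strand at chr15:98587861-98587883. On chromosome X the order is mir-17-2, mir-20b, mir-19b-2, mir-92a-2 and mir-363, with miR-92a-3p on the minus strand at chrX:137342945-137342965. RefSeq lists mir-17-2 under the symbol Mir106a. On chromosome 12 the order is mir-106b, mir-93 and mir-25, with miR-25-3p on the minus strand at chr12:22156652-22156673. These positions are those of GRCr8 and not of the builds named by the submitters. The hairpins mir-93 and mir-20b were not analysed here.

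The copies of a hairpin can be told apart only by the arm that differs, shown here because it limits what the paired rows measure.
miR-17-1-3p (mir-17-1): acugcagugaaggcacuugugg
miR-17-2-3p (mir-17-2): acugcacugcaagcacuucuuac
miR-92a-1-5p (mir-92a-1): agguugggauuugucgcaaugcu
miR-92a-2-5p (mir-92a-2): agguggggauuagugccauuac
Each of these pairs differs at 6 of 22 aligned bases, whereas the main arms of both copies are identical. The mir-17 rows held 66 and 67 counts in swim, against 183 and 182 in control. The mir-19b rows held 1101 counts each in swim, against 384 each in control, so neither row can be assigned to 1 chromosome. The mir-92a rows were unlike each other although they share the main arm, with 7190 and 430 counts in swim, against 5001 and 598 in control. No source used here says how reads of a shared arm were divided between rows.

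The miRNA entries held 3219939 counts in the swim library and 2460845 in the control library. Levels are given as shares of that total in CPM, the count in 1000000, and each ratio is swim over control with an exact 95% binomial interval. Intervals cover counting error only and hold no variation between animals or libraries. They may be too narrow even for counting error, because PCR copies of one molecule are counted as separate reads. Neither condition was replicated, so there was no replicate check and no test between them. An entry was called higher or lower when its log2 ratio, with a pseudocount of 0.5, was at least 1 in size and the interval excluded 1. Of the 173 entries that reached the minimum summed count, 3.47% were called higher and 32.9% lower. The deposited table consists of a first part of 81 rows with high counts and a second part of 122 rows with low counts. In the first part 6.67% of entries were called higher and 1.33% lower, against 1.02% and 57.1% in the second part. Fewer cells of a type and less RNA per cell cannot be told apart in such bulk tissue.

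Members differed in the direction of their ratios, also within the miR-19 and the miR-92 seed group. Of the 8 rows, 2 were called higher (both mir-19b rows) and 3 were called lower (both mir-17 rows and mir-19a), while mir-92a-1, mir-92a-2 and mir-25 had no call. Counted once per measurement, 1 of 6 was higher and 2 were lower. The second part of the table held 4 of the 8 rows, of which 3 were called lower, beside 57.1% of all its entries. The other 4 rows stand in the first part, and the higher call there is 1 measurement, mir-19b, which stands there through its swim count. Of all entries, 6.67% in the first part and 3.47% over both parts were called higher. The median log2 ratio of the 6 measurements was -0.36, beside -0.59 over all 173 entries. Levels of the 6 measurements spanned 5.59 to 2233 CPM in swim, against 19.1 to 2032 CPM in control.

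**Figure D1:**
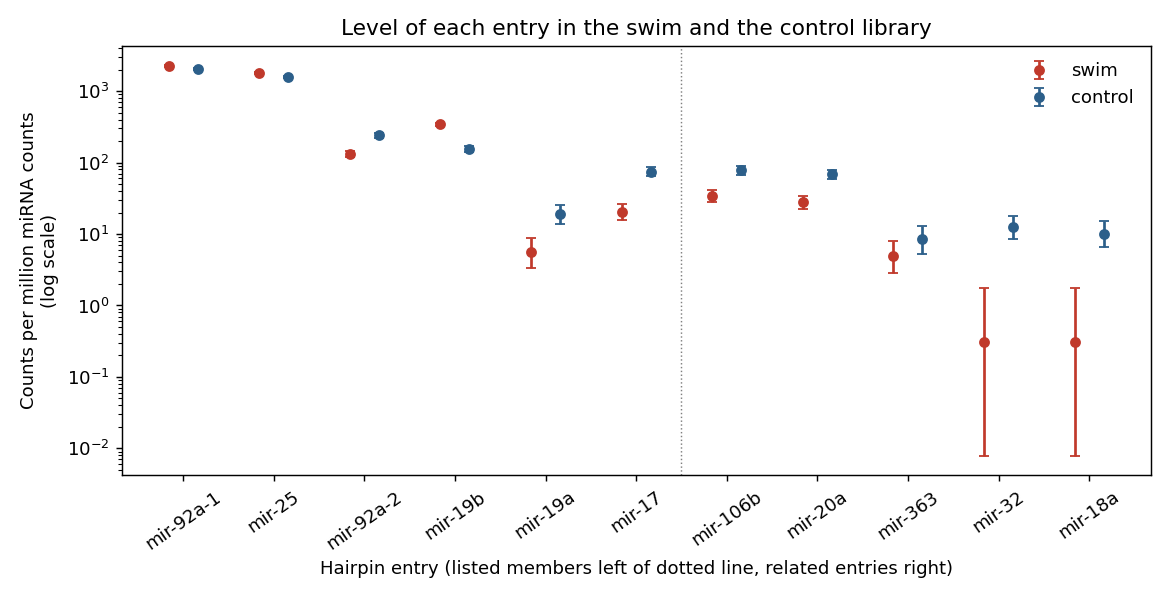
Level of each entry in CPM (log scale) in the swim library (red) and the control library (blue), 1 library each, with exact 95% binomial intervals for counting error. The swim point lies above the control point for mir-92a-1, mir-25 and mir-19b, and below it for the other listed members and the related entries.

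The miR-92 seed group made up most of the counts. The entry mir-92a-1, the last hairpin of the chromosome 15 cluster, had 7190 counts (2233 CPM) in swim, against 5001 counts (2032 CPM) in control. Its ratio was 1.10 (1.06 to 1.14), no call, and it ranked 38th of 191 entries in swim and 35th in control. The entry mir-25, from the mir-106b-25 cluster, had 5771 counts (1792 CPM) in swim, against 3850 counts (1565 CPM) in control, a ratio of 1.15 (1.10 to 1.19). Both abundant entries lay slightly above 1, and the change of one over the other had an interval that included 1. The count of mir-25 was 0.803 times that of mir-92a-1 in swim, against 0.770 times in control, a change of 1.04-fold (0.987 to 1.10). For mir-92a-2, the X-chromosome copy, the counts were 430 (134 CPM) in swim, against 598 (243 CPM) in control. Its ratio of 0.549 (0.484 to 0.623) was the only 1 below 1 in this seed group among the members, and it fell short of the 2-fold rule.

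The rows of the mir-92a copies differed in count, although their main arms cannot be told apart. The mir-92a-2 row held 5.64% (5.13 to 6.18%) of the counts of both copies in swim, against 10.7% (9.88 to 11.5%) in control. The count of mir-92a-1 was 16.7 times that of mir-92a-2 in swim, against 8.36 times in control, a change of 1.999-fold (1.75 to 2.28) that does not depend on the library totals. The rows stand in different parts of the table, whose median ratios were 1.06 in the first part (mir-92a-1) and 0.459 in the second (mir-92a-2). Relative to the median of its own part, a setting chosen after seeing the data, mir-92a-1 lay at 1.03 (0.996 to 1.07) and mir-92a-2 at 1.20 (1.06 to 1.36), so the order of the pair turns. With both rows added the counts were 7620 in swim, against 5599 in control, and the ratio was 1.04 (1.005 to 1.077). With mir-25 the seed group summed to 4159 CPM in swim, against 3840 CPM in control, a ratio of 1.08 (1.05 to 1.11) that was 1.64 under median-of-ratios factors.

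In the miR-19 seed group, entries whose main arms differ by 1 base received opposite calls. The entry mir-19b had 1101 counts (342 CPM) in swim, against 384 counts (156 CPM) in control. Its ratio was 2.19 (1.95 to 2.47), a higher call, and its rank among the 191 entries was 73 in swim, against 91 in control. In mouse lymphoma models the miR-19 members are the components of the cluster best known for driving growth. The entry mir-19a, from the same primary transcript as mir-19b-1, had 18 counts (5.59 CPM) in swim, against 47 counts (19.1 CPM) in control. Its ratio was 0.293 (0.160 to 0.514), a lower call on 65 counts in all. Set against mir-19a, the count of mir-19b was 61.2 times as high in swim and 8.17 times as high in control, a change of 7.49-fold (4.20 to 13.9). The single base by which the main arms differ, C11U, lies outside the seed.

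The mir-19b rows belong to the high-count part of the table and mir-19a to the low-count part. Entries of the high-count part reached at least 838 in one library or the other, so mir-19b, with 384 counts in control, stands there through its swim count. Its ratio to the median of the first part, 2.06 (1.83 to 2.32), is therefore a description that its own swim count helped to set. Relative to the median of the second part, mir-19a had 0.638 (0.349 to 1.12), which is not a call.

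The miR-17 seed group was low in both libraries and lower in swim. The entry mir-17 (first row), which leads the primary transcript, had 66 counts (20.5 CPM) in swim, against 183 counts (74.4 CPM) in control. Its ratio of 0.276 (0.205 to 0.367) was the lowest of the 6 measurements, and the second row gave 0.281 (0.209 to 0.374). It ranked 121st in swim, against 109th in control. Relative to the median of the second part the ratio was 0.601 (0.446 to 0.800), below 1 but not a call. The ratio of mir-17 to mir-19a was 3.67 in swim, against 3.89 in control, a change of 0.942-fold (0.495 to 1.85). At these counts the interval leaves room for a change in either direction, from 0.495-fold to 1.85-fold.

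**Figure D2:**
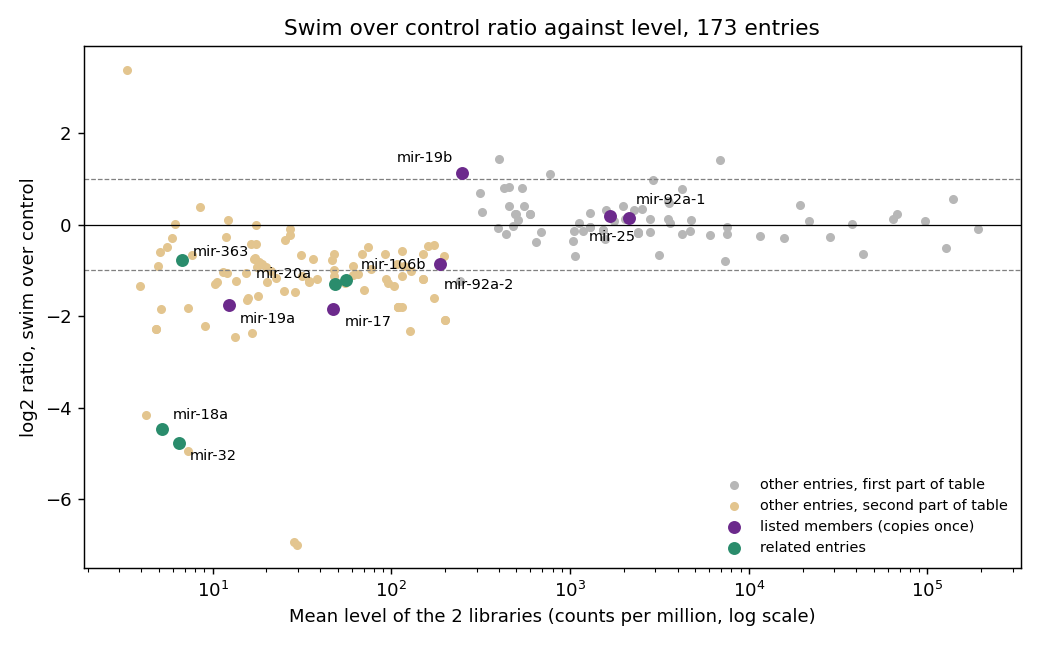
log2 ratio of swim over control (pseudocount 0.5) against the mean level of the 2 libraries (log scale) for the 173 entries tested, with dashed lines at 2-fold. Among the listed members (purple), mir-19b lies above the upper line and mir-17 and mir-19a lie below the lower one, where many entries of the second part of the table (tan) also lie.

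Ratios within a library do not depend on the library totals. Ratios across the parts of the table also carry the gap between their medians. Of the 15 pairs of the 6 measurements, 13 changed by more than counting error. The exceptions were mir-17 with mir-19a and mir-92a-1 with mir-25. The share of such pairs over all entries was not computed, so the count does not set the members apart. Pairs of mir-19b, mir-92a-1 or mir-25 with mir-17, mir-19a or mir-92a-2 cross the parts, whose median ratios were 1.06 and 0.459. The changes ran from 1.04-fold to 7.95-fold. The largest was that of mir-19b over mir-17, at 16.7 in swim, against 2.10 in control, a change of 7.95-fold (5.81 to 10.9). Between the rows named for the ends of the chromosome 15 cluster, mir-92a-1 over mir-17 was 109 in swim, against 27.3 in control. This was a change of 3.99-fold (2.98 to 5.38). The rows of mir-17, mir-19b and mir-92a-1 cannot be assigned to chromosome 15 alone, as copies on the X chromosome share their main arms. For mir-19b over mir-92a-1, neighbours on chromosome 15, the count ratio was 0.153 in swim, against 0.0768 in control, a change of 1.99-fold (1.76 to 2.26).

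The other entries of the clusters and seed families with counts were mir-20a, mir-106b, mir-18a, mir-32 and mir-363. Of these 5, 4 were called lower and none higher, beside 57.1% of all second-part entries called lower, and mir-363 had no call. Relative to the median of that part only mir-18a and mir-32, each listed at 1 count in swim, were lower calls. The 5 entries' median log2 ratio was -1.29, beside -1.12 over the 98 tested entries of the second part, where all 5 stand. Their main arms are shown beside those of the members because 4 of them carry the seed of a member, and mir-18a, with a seed of its own, lies in the same cluster.
miR-20a-5p (mir-20a): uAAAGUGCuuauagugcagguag
miR-106b-5p (mir-106b): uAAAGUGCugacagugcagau
miR-18a-5p (mir-18a): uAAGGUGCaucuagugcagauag
miR-363-3p (mir-363): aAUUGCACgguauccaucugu
miR-32-5p (mir-32): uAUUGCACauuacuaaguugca
From miR-17-5p, miR-20a-5p differs by C1U and C12U, and miR-106b-5p by C1U, U10G and G20A over 21 bases. The seed of miR-18a-5p departs from that of miR-17-5p by A4G.

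The relatives with the miR-17 seed lay close to each other. The entry mir-20a had 90 counts (27.9 CPM) in swim, against 169 counts (68.7 CPM) in control, a ratio of 0.407 (0.312 to 0.529). The entry mir-106b, from the chromosome 12 cluster, had 109 counts (33.9 CPM) in swim, against 192 counts (78.0 CPM) in control, a ratio of 0.434 (0.340 to 0.552). The count of mir-106b was 1.21 times that of mir-20a in swim, against 1.14 times in control, a change of 1.07-fold (0.742 to 1.53). Both lower calls are lost with median-of-ratios factors, unscaled counts and the median of the second part, and that of mir-106b also under TMM factors. Together with mir-17 the group summed to 82.3 CPM in swim, against 221 CPM in control, a ratio of 0.372 (0.320 to 0.432). In each of the 3 entries the swim value was the lower one. All 3 stand in the second part, where 94 of 98 tested entries had a ratio below 1. Relative to the median of that part, mir-20a lay at 0.887 (0.679 to 1.15) and mir-106b at 0.946 (0.741 to 1.20).

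Other relatives rested on few counts. The entries mir-18a, the second hairpin of the chromosome 15 cluster, and mir-32, which has the miR-92 seed, were listed at 1 count each in swim, against 25 and 31 counts in control. Their ratios were 0.0306 (0.000745 to 0.187) and 0.0247 (0.000605 to 0.148). A value of 1 stood in 16 entries of the swim library and 8 of the control library, and the values 2, 3 and 4 stood in 0 entries of both, so the listed 1 may be a filled-in value. The entry mir-363, at the end of the X-chromosome cluster, had 16 counts in swim, against 21 in control, and a ratio of 0.582 (0.284 to 1.17).

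**Figure D3:**
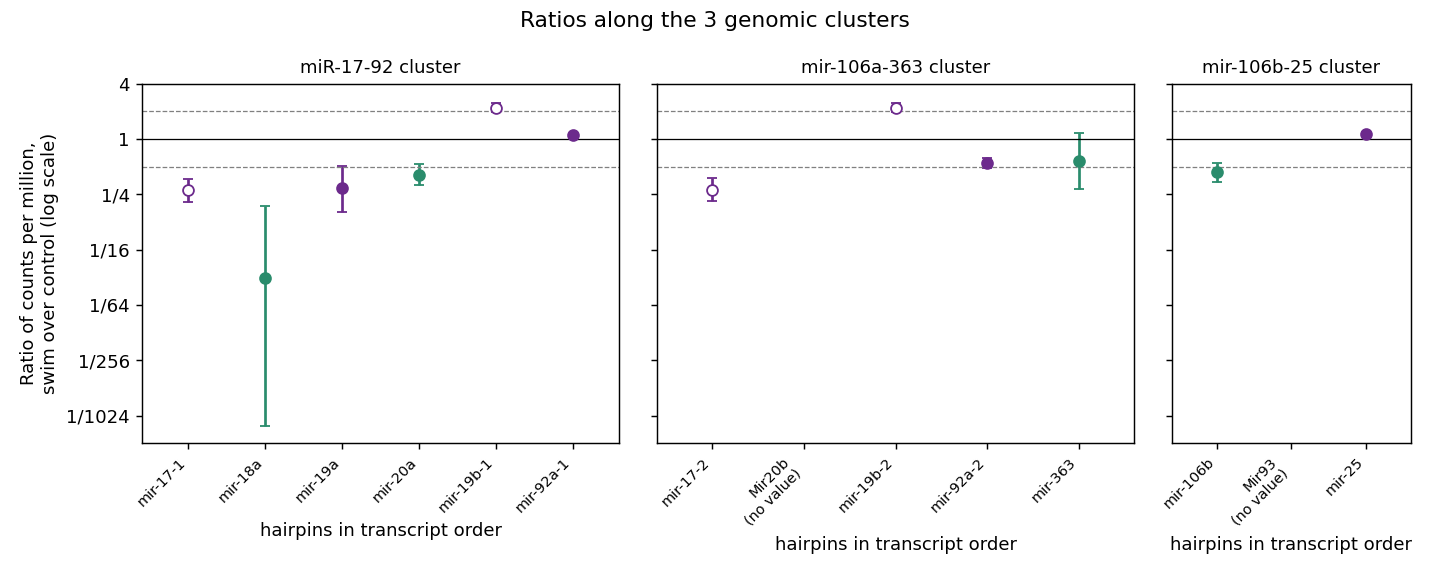
Ratio of CPM, swim over control (log scale), for the hairpins of each cluster in transcript order, with exact 95% intervals for counting error and dashed lines at 2-fold. Purple marks listed members and green related entries. Open symbols mark the mir-17 and mir-19b rows, whose counts equal, or nearly equal, those of a copy in another cluster. The mir-92a rows, drawn filled, also share their main arm with a copy in another cluster, and how its reads were divided is unknown. Within the chromosome 15 cluster the ratios run from 0.0306 for mir-18a to 2.19 for mir-19b-1.

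Hairpins of one primary transcript had unlike ratios. On chromosome 15 the 6 hairpins gave 0.276, 0.0306, 0.293, 0.407, 2.19 and 1.10 in transcript order, so that only its last 2 hairpins lay above 1. These 2 belong to the high-count part of the table and the other 4 to the low-count part, with median ratios of 1.06 and 0.459. The mir-17, mir-19b and mir-92a-1 rows may also hold reads of the X-chromosome copies. On chromosome 12, mir-25 over mir-106b was 52.9 in swim, against 20.1 in control, a change of 2.64-fold (2.07 to 3.38), while relative to its own part mir-25 lay at 1.08 and mir-106b at 0.946. On the X chromosome, mir-92a-2 over mir-363 was 26.9 in swim, against 28.5 in control, a change of 0.944-fold (0.463 to 1.96). Since reads in the mir-17 and mir-19b rows cannot be assigned to either of the 2 copies, no total per cluster was formed. How reads of the main arm shared by the mir-92a rows were divided is also unknown.

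The shares of the seed groups were also taken over the 6 measurements. The miR-92 seed group took 91.9% (91.4 to 92.3%) of the members' counts in swim, against 93.9% (93.4 to 94.4%) in control. The miR-19 seed group took 7.68% (7.25 to 8.12%) in swim, against 4.28% (3.90 to 4.70%) in control. The miR-17 seed group took 0.453% (0.350 to 0.576%) in swim, against 1.82% (1.57 to 2.10%) in control. With the 5 related entries included, the miR-92 share was 90.6% in swim, against 90.5% in control. All 6 measurements together summed to 4527 CPM in swim, against 4089 CPM in control, with most of the counts in mir-92a-1 and mir-25. The ratio was 1.11 (1.08 to 1.14). Under other scalings it ran from 1.02, with the row that names no miRNA in the totals, to 1.67 with median-of-ratios factors.

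The entries nearest to each member in log2 CPM over the 2 libraries, outside the cluster and seed lists, were taken as those with the most similar pattern. For mir-19b these were mir-532, with 1249 counts in swim, against 593 in control, and mir-204, with 1876 in swim, against 531 in control, at distances of 0.652 and 0.899. For mir-17 they were mir-505 and mir-128-2, at 0.511 and 0.579, and for mir-19a they were mir-7a-1 and mir-409a, at 0.372 and 0.388. Closer matches were found for mir-92a-1, namely mir-30b at 0.099 and mir-101a at 0.186, and for mir-25, namely mir-23b at 0.135 and mir-199a at 0.155. For mir-92a-2 they were mir-221 at 0.188 and mir-320 at 0.316.

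**Figure D4:**
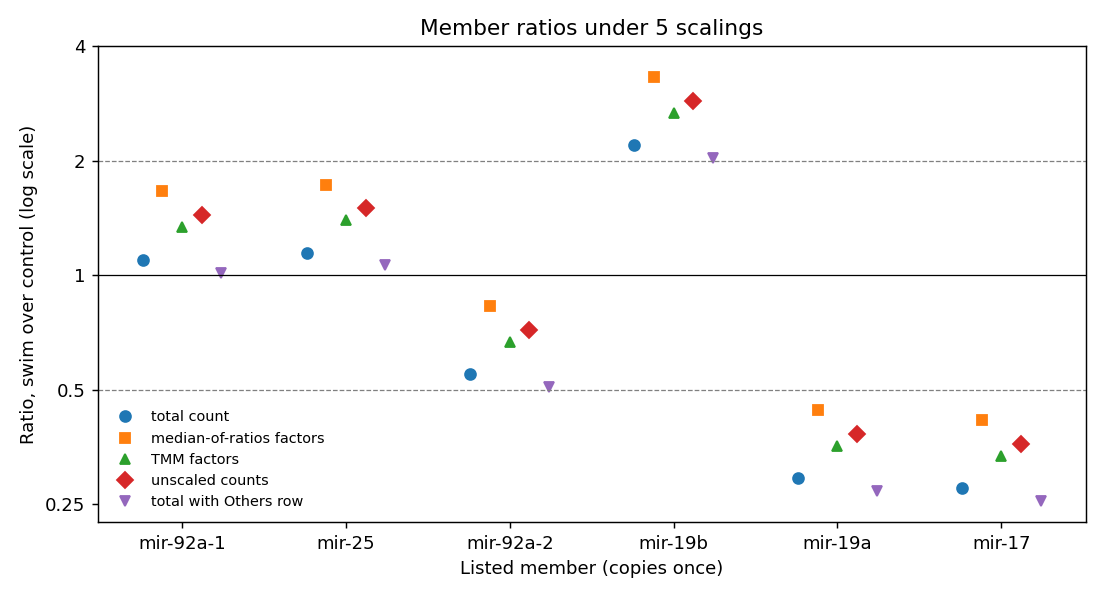
Ratio of swim over control (log scale) for the 6 measurements under 5 ways of scaling the libraries, with dashed lines at 2-fold. Each member keeps its side of 1 under every scaling shown, and mir-19b stays above the upper line, from 2.03 to 3.31.

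The direction of each member held under the 6 other scalings tried, each of which shifts every ratio by a common factor. The ratio of mir-19b ran from 2.03 to 3.31, that of mir-17 from 0.255 to 0.416 and that of mir-19a from 0.271 to 0.442, and all kept their call. The ratio of mir-92a-1 ran from 1.02 to 1.66 and that of mir-25 from 1.06 to 1.73, so the size of their difference depended on the scaling. That of mir-92a-2 ran from 0.508 to 0.830. No common factor removes the gap between the parts of the table. Relative to the median of its own part, a setting chosen after seeing the data, mir-92a-2 lay above 1, at 1.20 (1.06 to 1.36). In that setting mir-17 and mir-19a had no call. Median-of-ratios factors raised every log2 ratio by 0.59, unscaled counts by 0.39 and TMM factors by 0.28, and the total with the unnamed row lowered it by 0.11.

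Markers of the cell types in the ventricle were read beside the members. Summed over 6 of 6 listed cardiomyocyte entries, the level was 89545 CPM in swim, against 70875 CPM in control, with ratios from 0.624 for mir-1 to 2.64 for mir-208b. The vascular smooth muscle pair mir-143 and mir-145 summed to 187599 CPM in swim, against 199692 CPM in control. Most of this was mir-143, with a ratio of 0.936, while mir-145 had a ratio of 1.32. The endothelial mir-126a had 37987 CPM in swim, against 37523 CPM in control. The 3 of 5 leukocyte entries with counts, mir-142, mir-146a and mir-150, summed to 6914 CPM in swim, against 6979 CPM in control, with ratios from 0.785 to 1.07. The 3 fibroblast entries summed to 8847 CPM in swim, against 9652 CPM in control, with ratios from 0.37 for mir-214 to 1.25 for mir-199a. The 1 of 3 erythroid entries, mir-144, had 24.8 CPM in swim, against 29.3 CPM in control. No measured marker was at 0. Of all these, mir-208b was called higher and mir-214, a fibroblast entry, lower. The part of cell composition in the members' ratios was not tested.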

How the data were processed

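Small RNA of 1 swim and 1 control left ventricle library was analysed. The authors deposited 1 table of read counts per library, whole numbers that were taken as given. Levels and main ratios were scaled by the miRNA total of each library. Total RNA was isolated with a Qiagen kit and libraries followed Illumina's protocol, per the labels' protocols. Bowtie 0.12.2 and the builds rn4 and rn5 are named with no role, per the submitters' processing notes. Trimming, allowed mismatches, multi-mapping and the miRNA release are not stated in any source used here. A row carries a hairpin name, so both arms share it.

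Of 203 rows, 9 marked with an asterisk and the row Others (12.5% of swim and 5.41% of control counts) were left out. The name let-7e stood in 2 unmarked rows, kept in the totals without a ratio. Intervals were exact conditional binomial intervals at 95% (SciPy 1.17.1). TMM factors came from edgeR 4.0.16, used only for this. The rule was tested on simulated data for swim against control (20 simulations, 40 entries changed 3-fold, 167 to 175 entries). Of the changed ones 97% were called with the true direction, and 0.405% of unchanged ones were called. Both simulated libraries came from a shared profile with counting error only, without variation between animals or a gap between the table's parts. The percentages therefore do not give the rate of wrong calls in these data.

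The members, lists and size rule were chosen with earlier results of these data known. Named were the 8 members, the other entries of the 3 clusters and of their seed families, the 2 nearest entries per member and cell type markers. Alternatives were other scalings, size rules, count filters and pseudocounts, and copies taken as one.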

Additional observations from a re-analysis of the deposited data

Results flagged for a closer look

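The row that names no miRNA, which no comparison used, held 12.5% of all counts in the swim library and 5.41% in the control library, and was looked at again because its share was higher in swim. With this row in the totals, a setting chosen after seeing the data, the ratio was 2.03 for mir-19b, 0.255 for mir-17, 0.271 for mir-19a, 1.02 for mir-92a-1, 1.06 for mir-25 and 0.508 for mir-92a-2. No sample could be compared with others of its group, as each group held 1 library.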

How the results depend on the processing

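No paired analysis was possible because each condition had 1 library, and for the same reason no replicate could be left out. Of the 8 members, 2 were called higher, against 0 at a 3-fold rule and 1 with equal-count copies taken as one entry. The 3 called lower became 0 relative to the median of the own part of the table, a setting chosen after seeing the data. Other settings kept both counts within 1.5 times. Over all entries the 6 higher and 57 lower calls became 18 and 26 with median-of-ratios factors, 11 and 33 with TMM factors, 12 and 30 unscaled, and 11 and 11 relative to the own part. At a 1.5-fold rule 12 were higher, at 3-fold 1 was higher and 26 lower, and with a summed count of at least 100, which tests fewer entries, 36 were lower. The changes of mir-19b over mir-17, mir-19b over mir-19a, mir-92a-1 over mir-17 and mir-92a-1 over mir-92a-2 stayed inside their intervals with a pseudocount of 5. Taking the second copies for the first 3 was no check, as the counts of those copies agree within 1. The other pairs were not recomputed. The cause of these moves was otherwise not tested. Depth limits mir-19a, mir-18a, mir-32 and mir-363, with summed counts of 65, 26, 32 and 37.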
